A study of Mus musculus with 10 samples.

Results

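The genes described here are those of the pyruvate dehydrogenase complex, the enzyme that feeds pyruvate into the tricarboxylic acid cycle, with the kinases and phosphatases that set its activity. They were measured in colon tumours of mice labelled as lacking the Wnt co-factors Bcl9 and Bcl9l and of wild-type mice. The 10 genes are the kinases Pdk1, Pdk2, Pdk3 and Pdk4, the phosphatases Pdp1 and Pdp2, and the subunit genes Pdha1, Pdhb, Dlat and Dld, of 18193 genes with a probe set of their own on the array. Every probe set annotated to only 1 of these genes was taken, which gave 19 of 45101 probe sets, 7 for kinases, 3 for phosphatases and 9 for subunits. The group was chosen by the measured KO and WT signals of Pdk4, which was lower in the mutant tumours, so the values of Pdk4 are given as a description and were not tested.

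The mutant tumours (KO) came from mice of the genotype vil-Cre-Bcl9-/-/Bcl9l-/-, in which the villin promoter drives Cre recombinase in the intestinal epithelium, and the others from wildtype mice (WT). All animals were of a mixed 129SvEv/C57BL/6/DBA/2 background, were treated from the age of 6 to 8 weeks with dimethylhydrazine, a carcinogen precursor, at 44 mg per kg, and then drank 2% dextran sulfate sodium, which injures the colon, for 7 days. Tumour tissue was cut out of frozen sections by laser, and its RNA was amplified and read on Mouse Genome 430 2.0 arrays of Affymetrix, 1 array a tumour. The 5 KO tumours belonged to 3 mice, 2 each to mice 02 and 04 and 1 to mouse 99, and the 5 WT tumours to 2 mice, 4 to mouse 72 and 1 to mouse 82. Per the labels, dissected samples of a mouse were pooled at extraction, although several arrays are listed for single mice, so tumours of a mouse may share RNA. Villin is a gene of epithelium, and stromal and immune cells of the dissected tissue are not known to express it. Of 5 probe sets of the targeted genes 4 reached the level filter and none of these was lower in KO tumours past the test. Bcl9 was at 8.49 ± 0.20 in KO, against 8.28 ± 0.22 in WT on 1451574_at, and Bcl9l at 8.40 ± 0.22 in KO, against 8.27 ± 0.15 in WT on 1419180_at (adjusted p from 0.240 to 0.650 over the 4, limma). Bcl9l probe set 1443700_at, under the filter, was at 4.62 ± 0.05 in KO and 4.76 ± 0.05 in WT, without overlap. The sources used here do not say whether the deleted exons fall under these probe sets, so they do not check the labels, and KO and WT are used as labelled.

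Pyruvate dehydrogenase stands between glycolysis and mitochondrial oxidation and turns pyruvate into acetyl-CoA. The kinases phosphorylate its alpha subunit and switch it off, and the phosphatases remove that phosphate and switch it on again. Pdk4 is known as the kinase gene that responds most to fasting, fatty acids and glucocorticoids, through PPAR, FOXO and the glucocorticoid receptor. In human colon cancer cells, Wnt signalling is known to raise PDK1.

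Array values are log2 RMA signals, the authors' background-corrected, quantile-normalised summaries per probe set. A difference of 1 is a 2-fold change, and signals of different probe sets are not comparable as amounts of RNA. None of 12 epithelial markers passed the test, with a median difference of 0.11 log2. Their mean was 11.646 to 11.96 in KO and, more widely spread, 10.953 to 12.235 in WT tumours. Epcam was even, at 13.59 ± 0.07 in KO and 13.58 ± 0.09 in WT tumours. Other markers varied more among WT tumours, with Cdx2 at 9.98 ± 0.63 in KO and 9.98 ± 1.76 in WT. Cdx1 was at 9.28 ± 0.53 in KO and 8.69 ± 0.97 in WT. The smallest p was that of Vil1, at 11.81 ± 0.14 in KO and 11.13 ± 0.44 in WT (limma, adjusted p = 0.0801). Of 9 tested lymphocyte markers 7 were higher in KO tumours, against 3.66% of 12257 genes tested with 1 probe set each. Ptprc and Cd4 did not pass (limma, adjusted p = 0.0742 and 0.824). The mean over the 11 lymphocyte markers on the array was 7.05 to 7.56 in KO and 5.66 to 6.34 in WT tumours. Fibroblast markers had a median difference of −0.37 log2 with none of 9 past the threshold, and their mean was 8.69 to 9.82 in KO and 8.92 to 9.94 in WT tumours. None of 9 smooth muscle markers passed, with a mean of 7.17 to 8.08 in KO and 7.03 to 8.00 in WT tumours. Of the markers of adipocytes and striated muscle, tissues rich in Pdk4, 7 of 8 and 10 of 12 on the array were under the level filter. Adipoq was at 3.09 ± 0.11 in KO and 3.09 ± 0.11 in WT, Lep at 3.69 ± 0.19 in KO and 3.73 ± 0.10 in WT, and Ckm at 5.72 ± 0.08 in KO and 5.72 ± 0.18 in WT tumours (mean ± SD, n = 5 each). The exceptions were Fabp4 at 9.70 ± 0.66 in KO and 9.49 ± 0.77 in WT, Tnni2 at 7.64 ± 0.46 in KO and 7.43 ± 0.64 in WT, and Acta1 at 6.11 ± 0.61 in KO and 5.72 ± 0.45 in WT, none past the threshold. The mean over adipocyte markers spanned 5.30 to 5.47 in KO and 5.29 to 5.53 in WT tumours, and that over striated muscle markers 5.14 to 5.28 in KO and 4.99 to 5.47 in WT tumours. What part differing cell content had in the results was not tested, and in dissected tissue fewer cells of a type and less RNA per cell cannot be told apart.

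Pdk4 was near the bottom of the signal range in every KO tumour and well up the range in every WT tumour. Its only probe set, 1417273_at, read 4.38, 4.10, 4.05, 4.06 and 4.02 log2 in KO tumours 2, 6, 7, 9 and 11. In WT tumours 1, 3, 8, 12 and 13 it read 10.71, 7.81, 10.86, 8.07 and 8.40. The groups did not overlap, and the lowest WT tumour lay 3.43 log2 above the highest KO tumour. Means were 4.12 ± 0.15 in KO and 9.17 ± 1.49 in WT tumours (mean ± SD, n = 5 each), and the fitted difference was −5.13 log2. Among 27022 probe sets tested across the array, 9 had a larger fall. These values chose the genes and are given with no test.

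Signal over background was not assessed, and the low KO signals limit how exactly the size of the difference is known. Between 16.7% and 21.1% of the probe sets on each KO array were dimmer than Pdk4, against 69.2% to 95.3% on each WT array. All KO values were under 5.81 log2, the level that a mean over the 10 arrays had to reach for a probe set to be tested. The signals of the KO tumours differed from one another by up to 1.28-fold, across 3 mice.

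The WT tumours themselves fell into high and lower values. Tumour 1 of mouse 72 and tumour 8 of mouse 82 were above 10.7 log2, and the other 3 WT tumours, all of mouse 72, were at 7.81 to 8.40. WT tumours thus differed by up to 8.28-fold, and those of mouse 72 alone spanned 2.90 log2. Of the probe sets tested, 0.496% had a larger SD among WT tumours than Pdk4, and 76.2% had a larger SD among KO tumours. Pdk4 reached the level filter only through its WT signals. Its KO signals were low, so its small SD among KO tumours is not read as even expression.

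Unique sample numbers fall into a lower range, 191 to 229, with 1 KO and 4 WT tumours, and an upper range, 254 to 258, with 4 KO tumours and 1 WT tumour. What these ranges stand for is not stated, and a p-value within a range assumes that its lone tumour of a genotype varies like the others. The Pdk4 difference was −4.67 log2 in the lower range and −6.57 log2 in the upper one, whose lone WT tumour is tumour 1. Without mouse 72, which leaves WT tumour 8 alone, the difference was −6.74 log2.

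**Figure D1:**
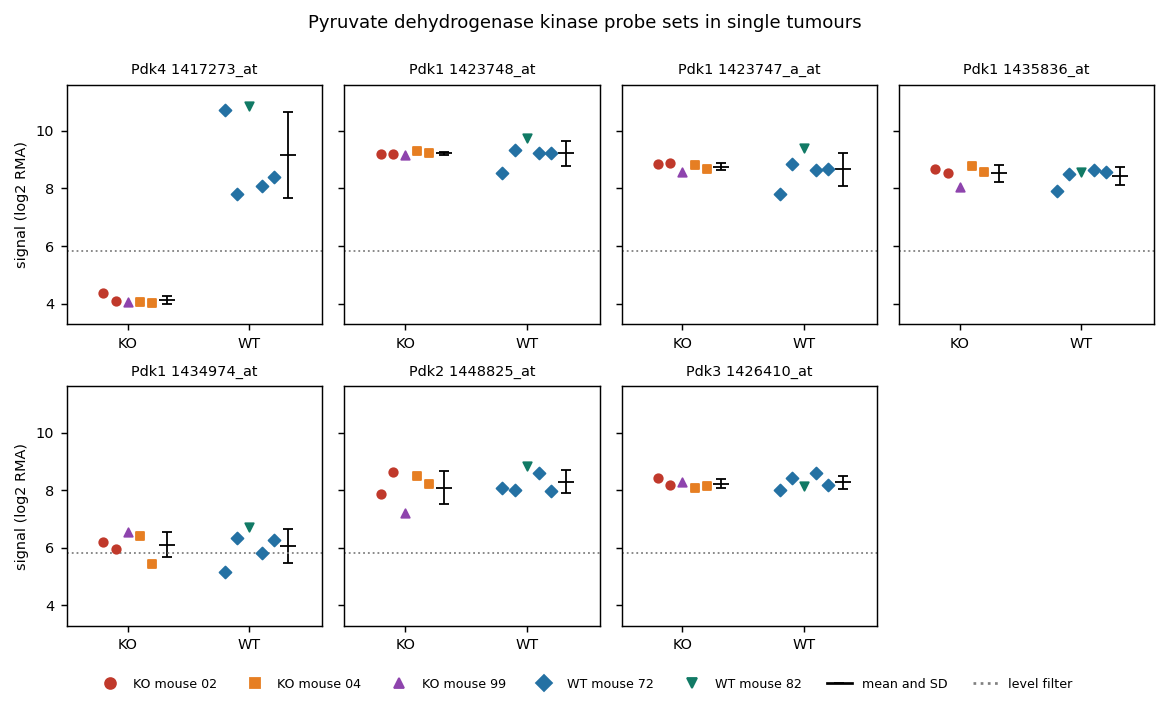
Signal (log2 RMA, y axis) of the 7 kinase probe sets in each KO tumour and each WT tumour, with mice marked by symbol, the group mean with SD to the right and the level filter dotted. Pdk4 is under the filter in all 5 KO tumours and between 7.81 and 10.86 in WT tumours, whereas KO and WT points of Pdk1, Pdk2 and Pdk3 overlap.

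The promoter of Pdk4, and that of Pdp2, the other gene of the group that was lower in each KO tumour, are shown so that the sequence searched for factor motifs can be seen. They are RefSeq sequences of GRCm38.p6, 250 bases before to 50 bases after the annotated start, read along the gene, at chr6:5496229-5496528 on the minus strand for Pdk4 and chr8:104591222-104591521 on the plus strand for Pdp2. Capitals mark matches to any motif searched, and the Pdk4 window holds none.
Pdk4: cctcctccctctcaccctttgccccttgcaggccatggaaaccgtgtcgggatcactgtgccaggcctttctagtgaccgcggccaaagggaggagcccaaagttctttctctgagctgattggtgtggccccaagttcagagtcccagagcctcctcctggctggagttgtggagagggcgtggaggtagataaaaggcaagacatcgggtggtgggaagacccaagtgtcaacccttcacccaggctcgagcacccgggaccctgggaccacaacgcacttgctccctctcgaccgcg
Pdp2: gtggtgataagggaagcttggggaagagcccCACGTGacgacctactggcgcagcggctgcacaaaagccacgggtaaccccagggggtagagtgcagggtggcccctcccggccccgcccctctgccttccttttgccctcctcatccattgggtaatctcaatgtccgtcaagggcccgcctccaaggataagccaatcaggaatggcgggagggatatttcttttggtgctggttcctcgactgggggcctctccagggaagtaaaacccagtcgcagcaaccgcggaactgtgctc
The motifs, searched on both strands, were CTTTGAA or CTTTGAT or CTTTGTA or CTTTGTT for TCF/LEF factors, GTAAACA for FOXO, the direct repeat of AGGTCA with 1 base between for PPAR with RXR, ACGTG for the HIF core and CACGTG for the E-box, which contains the HIF core. RefSeq windows were found for 9 of the 10 genes, 11 windows in all. A TCF/LEF match was in 1 of the 11, the second start of Pdk1, at base 43 after the start, and in 16.9% of all 32851 windows. FOXO and PPAR matches were in 0 of 11, against 3.65% and 0.0396% of all windows. With motifs this rare, 0 of 11 cannot tell these genes from others, and bases outside the windows were not searched. The E-box was in 2 of 11, Pdk2 and Pdp2, against 7.15% of all windows, and the HIF core in 4 of 11, those of Pdk2, Pdk3, Pdp2 and Pdhb, against 19.6%. A match is a run of letters, not a bound site.

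No difference between KO and WT tumours passed the test for the other kinases. Pdk1, whose product is a kinase induced by hypoxia in many cells, has 4 probe sets, with fitted differences of −0.03, 0.05, 0.08 and 0.03 log2. On 1423748_at it read 9.18, 9.21, 9.15, 9.30 and 9.22 in KO tumours 2, 6, 7, 9 and 11. In WT tumours 1, 3, 8, 12 and 13 it read 8.54, 9.35, 9.76, 9.22 and 9.23. KO tumours were tightly grouped inside a wider WT spread. Means were 9.21 ± 0.06 in KO and 9.22 ± 0.44 in WT tumours, and the 95% interval of the difference ran from −0.47 to 0.40 log2 (limma, adjusted p = 0.951). Its other probe sets gave adjusted p-values from 0.866 to 0.976. WT tumour 1 was the lowest WT tumour on all 4 probe sets, at 7.80, 7.90 and 5.15 on 1423747_a_at, 1435836_at and 1434974_at. WT tumour 8 was the highest on 3 of them, at 9.39 on 1423747_a_at.

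The 2 WT tumours with the highest Pdk4 thus stood at opposite ends of the WT group on 3 of the 4 Pdk1 probe sets. Within the upper number range, where WT tumour 1 is the only WT tumour, probe set 1423747_a_at was 1.01 log2 higher in KO tumours, a value that rests on that tumour. The 4 Pdk1 differences without WT tumour 1 were −0.20, −0.17, −0.06 and −0.20 log2, and none passed.

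Pdk2, the most widely expressed kinase gene of the family, read 7.88, 8.64, 7.19, 8.50 and 8.23 log2 in KO tumours 2, 6, 7, 9 and 11 on 1448825_at. In WT tumours 1, 3, 8, 12 and 13 it read 8.06, 7.99, 8.85, 8.60 and 7.97. The groups overlapped, and KO tumour 7, the only tumour of mouse 99, was the lowest of the 10. The difference was −0.25 log2 with a 95% interval from −0.90 to 0.40 (limma, adjusted p = 0.693), and 0.01 without KO tumour 7.

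Pdk3, a kinase known to resist inhibition by pyruvate, was at 8.23 ± 0.14 in KO and 8.27 ± 0.23 in WT tumours on 1426410_at (mean ± SD, n = 5 each). Its values ran from 8.08 to 8.44 in KO and from 8.01 to 8.59 in WT tumours. The difference was −0.03 log2, with an interval from −0.34 to 0.27 (limma, adjusted p = 0.920).

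The phosphatase gene Pdp2 was lower in KO tumours. Its product removes the inhibiting phosphate from the complex and is known to be sensitive to insulin. Probe set 1428996_at read 8.05, 8.01, 8.67, 8.17 and 8.56 in KO tumours 2, 6, 7, 9 and 11, against 9.56, 9.06, 9.29, 8.73 and 9.53 in WT tumours 1, 3, 8, 12 and 13. Every KO tumour lay under every WT tumour, though KO tumour 7 and WT tumour 12 were only narrowly apart. Pdp2 was at 8.29 ± 0.30 in KO and 9.23 ± 0.35 in WT tumours (mean ± SD, n = 5 each), a 1.91-fold lower level, with a difference of −0.94 ± 0.21 log2 (SE; limma, adjusted p = 0.0246).

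The call for Pdp2 rests on few animals. Over mouse means the difference was −0.90 (adjusted p = 0.0927), with the number range as a covariate −0.94 (0.0735), and without mouse 02, 04 or 72 the adjusted p was 0.123, 0.0661 and 0.179. It was also lost without KO tumour 6 (0.0739), WT tumour 1 (0.0593) or WT tumour 13 (0.0507), and within the lower range. There the difference was −0.47, with KO tumour 7, the highest KO tumour, as the only KO tumour. In the upper range the difference was −1.37, against WT tumour 1 alone, the tumour with the highest Pdp2.

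Pdp1, the calcium-stimulated phosphatase, has 2 probe sets with lower means in KO tumours that did not pass or were not tested. On 1434228_at it was at 8.29, 8.05, 8.49, 9.12 and 8.73 in KO tumours 2, 6, 7, 9 and 11, against 9.81, 8.61, 9.22, 8.68 and 9.44 in WT tumours 1, 3, 8, 12 and 13. The groups overlapped through KO tumours 9 and 11, both of mouse 04. Means were 8.54 ± 0.41 in KO and 9.15 ± 0.51 in WT, a difference of −0.62 log2 with a 95% interval from −1.23 to −0.00499 (limma, unadjusted p = 0.0485, adjusted p = 0.238). The other probe set, 1438201_at, whose mean lay under the level filter, read 4.30 to 6.38 in KO and 4.99 to 7.14 in WT tumours. WT tumour 1 was the highest tumour on both probe sets of Pdp1 and on that of Pdp2.

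**Figure D2:**
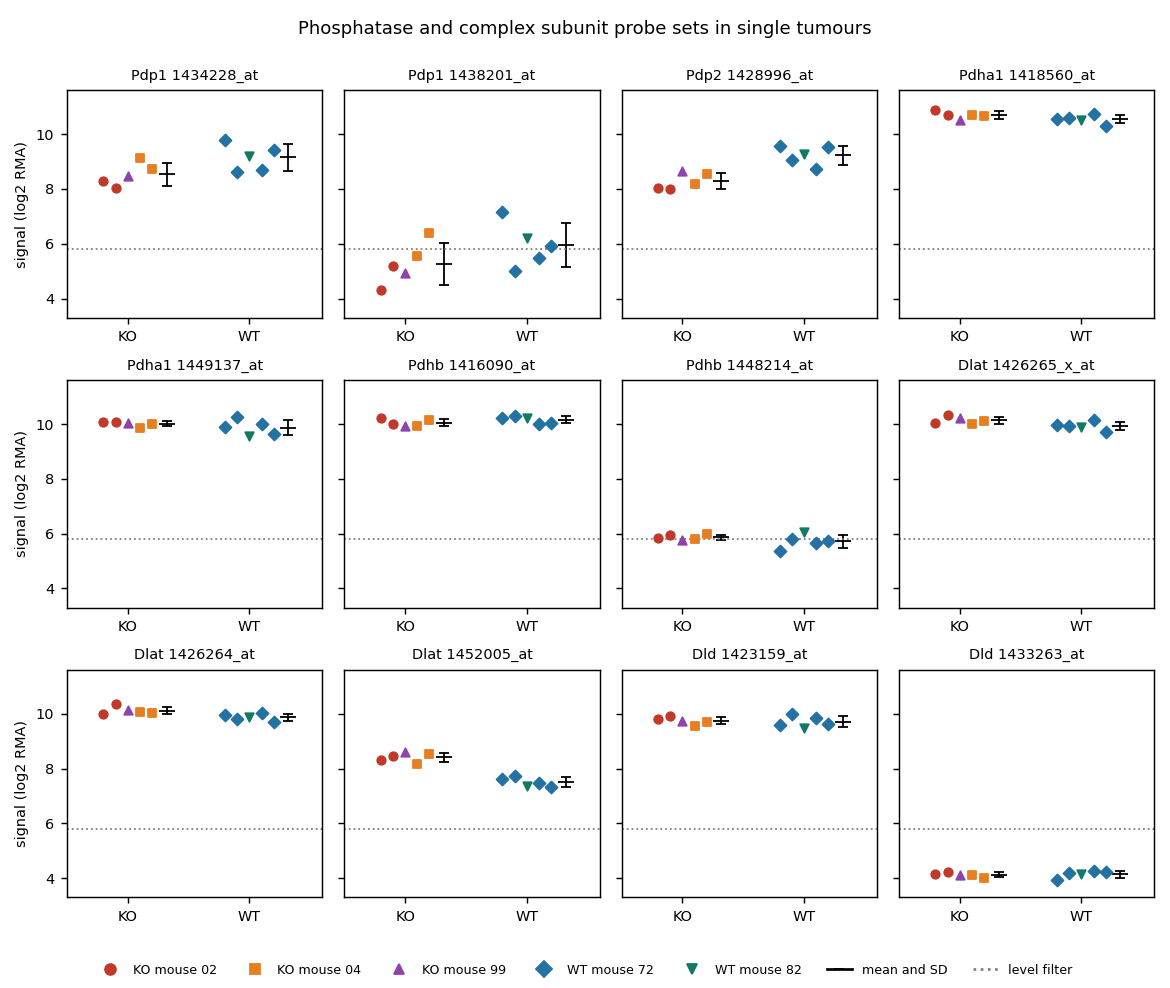
Signal (log2 RMA, y axis) of the 3 phosphatase and 9 subunit probe sets in each KO tumour and each WT tumour, with mice marked by symbol, the group mean with SD to the right and the level filter dotted. Pdp2 is lower and Dlat 1452005_at higher in all 5 KO tumours than in any WT tumour, and the other probe sets overlap.

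Among the subunits, Dlat was higher in KO tumours on 1 of its 3 probe sets. Dlat encodes the dihydrolipoamide acetyltransferase that forms the core of the complex and carries the lipoyl arms to which the kinases bind. Probe set 1452005_at read 8.31, 8.45, 8.60, 8.17 and 8.52 in KO tumours 2, 6, 7, 9 and 11. It read 7.64, 7.75, 7.38, 7.49 and 7.33 in WT tumours 1, 3, 8, 12 and 13. The groups were apart, with means of 8.41 ± 0.17 in KO and 7.52 ± 0.17 in WT tumours (mean ± SD, n = 5 each). The rise was 0.90 ± 0.13 log2 (SE), or 1.87-fold (limma, adjusted p = 0.00271). It was 1.11 in the lower and 0.73 in the upper number range, where it did not pass (adjusted p = 0.159 and 0.114), nor did it without mouse 72 (1.03, adjusted p = 0.0752).

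On the other Dlat probe sets the groups overlapped. On 1426264_at Dlat was at 10.12 ± 0.14 in KO and 9.87 ± 0.13 in WT tumours, a difference of 0.24 log2 with a 95% interval from −0.000127 to 0.49 (limma, adjusted p = 0.242). On 1426265_x_at the difference was 0.21 log2, from −0.04 to 0.47 (adjusted p = 0.327). Which transcripts each probe set reads was not examined here, so the rise is given for 1452005_at and not for Dlat as a whole.

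Pdha1 encodes the alpha subunit that the kinases phosphorylate and Pdhb its partner, and together they split off the carbon dioxide of pyruvate. Pdha1 was at 10.70 ± 0.14 in KO and 10.55 ± 0.15 in WT tumours on 1418560_at, and at 10.01 ± 0.08 in KO and 9.87 ± 0.28 in WT tumours on 1449137_at (mean ± SD, n = 5 each). The differences were 0.15 and 0.16 log2, with 95% intervals from −0.11 to 0.40 and from −0.15 to 0.47 (limma, adjusted p = 0.524 and 0.579). Pdhb was at 10.05 ± 0.13 in KO and 10.15 ± 0.13 in WT tumours on 1416090_at, a difference of −0.11 log2, from −0.35 to 0.14 (adjusted p = 0.636). Pdhb probe set 1448214_at, under the level filter, read 5.76 to 5.97 in KO and 5.37 to 6.05 in WT tumours.

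Dld encodes the dihydrolipoamide dehydrogenase that the complex has in common with the oxoglutarate and branched-chain dehydrogenases. On 1423159_at it was at 9.75 ± 0.12 in KO and 9.71 ± 0.20 in WT tumours, a difference of 0.05 log2, from −0.23 to 0.32 (limma, adjusted p = 0.878). Its probe set 1433263_at was not tested and read 4.00 to 4.24 in KO and 3.94 to 4.26 in WT tumours.

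Of the 19 probe sets 16 reached the level filter, and Pdk4 is 1 of these. Among the other 15, 2 changed, against 5.73% of all 27022 probe sets tested. Of these 1 was lower in KO tumours, Pdp2, against 2.52%, and 1 was higher, Dlat 1452005_at, against 3.20%. KO and WT tumours did not overlap for 2 of the 15, against 8.39% of all probe sets tested. Because the contrast was used to choose the group, nothing is read from these shares. The median difference of the 15 was 0.05 log2, beside 0.01 over all probe sets tested.

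**Figure D3:**
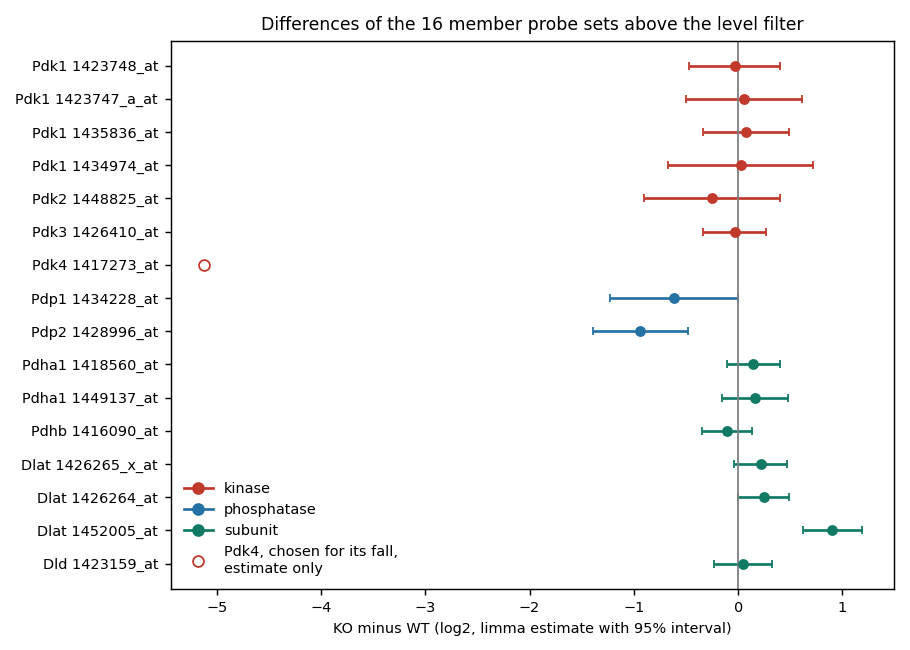
KO minus WT (log2, x axis) of the 16 member probe sets above the level filter, as limma estimates with 95% intervals, coloured by role. Pdk4, at −5.13 and shown without an interval, stands far left, the 2 phosphatases lie at −0.62 and −0.94, and the subunits lie between −0.11 and 0.90.

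Genes with a profile like that of Pdk4 were sought among 11675 named genes, by the root mean square difference of log2 values over the 10 tumours after each gene was centred on its own mean. The nearest was Nptx1, a neuronal pentraxin gene, at a distance of 0.78 log2. It read 4.54 to 5.19 in KO and 7.88 to 10.05 in WT tumours, with WT tumours 1 and 8 highest, as for Pdk4. Next came Adgrg2, an adhesion receptor gene (0.91), Apcdd1, a Wnt antagonist (0.96), Pnliprp2 (0.98), Ism1 (0.99), Wnt6, a Wnt ligand gene (1.02), Pnliprp1 (1.04) and Rnf144b (1.05). Nptx1, Adgrg2, Ism1, Wnt6, Pnliprp1 and Rnf144b had KO means of 4.13 to 5.11, under the level filter of 5.81 log2. Like Pdk4, these genes reached the filter only through their WT signals. Pnliprp1 and Pnliprp2 belong to the pancreatic lipase family. Acinar markers of the pancreas, 9 on the array, had a mean of 5.38 to 5.85 in KO and 5.38 to 5.62 in WT tumours. Only 3 reached the level filter, none past the threshold. These were Cela1 at 9.20 ± 0.38 in KO and 8.95 ± 0.39 in WT, Clps at 7.83 ± 1.66 in KO and 7.31 ± 1.24 in WT, and Cela3b at 6.53 ± 0.21 in KO and 6.74 ± 0.26 in WT. The part of such cells in these differences was not tested. Since Pdk4 was chosen for its fall, genes near it by this measure are also low in KO tumours, and the distances are a description of 10 tumours from 5 mice.

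Likeness within the groups was measured by Pearson's r of deviations from the group means over the 10 tumours, which the spread of WT tumours dominates. The highest values were those of Ptpru (0.961), Anpep (0.956), Ripor2 (0.953), Ngfr (0.950) and Cpsf6 (0.948). Of the 8 genes above, Nptx1 and Rnf144b had 0.900 and 0.890, and Pnliprp2 had 0.339. Ptpru, a receptor phosphatase gene, was at 6.68 ± 0.23 in KO and 7.46 ± 0.78 in WT tumours, and Cpsf6, an mRNA cleavage factor gene, at 10.04 ± 0.12 in KO and 10.01 ± 0.41 in WT tumours (mean ± SD, n = 5 each).

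**Figure D4:**
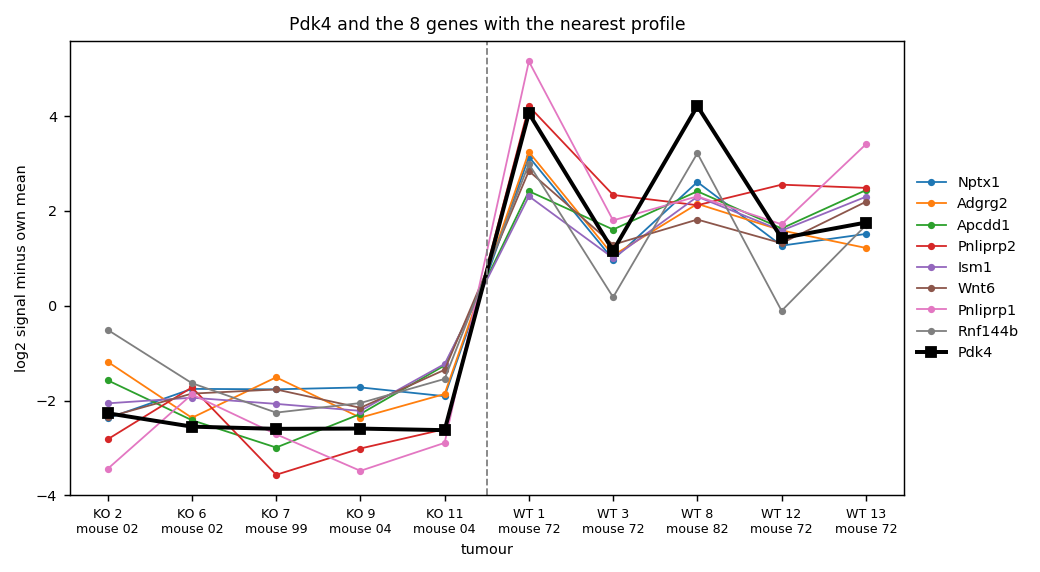
Log2 signal minus each gene's own mean (y axis) in the 5 KO and 5 WT tumours (x axis) for Pdk4, in black, and the 8 genes with the nearest profile. Lines only join the points of a gene, and Pdk4 is highest in WT tumours 1 and 8.

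Genes around the complex were compared to see whether neighbouring steps differed, with 1 probe set a gene, the one of highest mean. The values came from the fit of all probe sets, with its adjustment. Of the 12257 genes in that form 6.26% changed, 3.66% being higher and 2.59% lower in KO tumours, and the median difference was 0.03 log2. A separate fit of 1 probe set a gene alone, listed among the alternatives, called 868. Of 6 further genes of the complex and of its lipoyl cofactor, none passed, and 2 had an unadjusted p under 0.05 (limma). The lipoyl transferase gene Lipt2 and the sirtuin gene Sirt4 had differences of 0.90 and 0.32 log2 (adjusted p = 0.142 and 0.184), and Pdhx, which anchors Dld to the core, had 0.10. The median of the 6 was 0.16 log2. Of 7 tested genes of the oxoglutarate and branched-chain dehydrogenases, none passed and 1 had an unadjusted p under 0.05. Ppm1k, the phosphatase of the branched-chain complex, had 0.92 log2 and Ogdh 0.23 (adjusted p = 0.116 and 0.444), and the median of the 7 was 0.17 log2.

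None of 13 tested genes of pyruvate supply and its other routes passed, and 4 had an unadjusted p under 0.05 (limma). Ldhb, a lactate dehydrogenase gene, was at 8.53 ± 1.29 in KO and 10.26 ± 0.77 in WT tumours (mean ± SD, n = 5 each), a difference of −1.80 log2 (adjusted p = 0.115). The alanine transaminase gene Gpt2 had −1.12, Pck2 0.41 and the monocarboxylate transporter gene Slc16a1 0.85 log2 (adjusted p = 0.159, 0.163 and 0.181). Ldha and Pkm, for the main lactate dehydrogenase and pyruvate kinase of proliferating cells, had −0.08 and −0.04 log2. The median over the 13 genes was 0.17 log2. Pck1, whose mean lay under the level filter, read 5.25 to 6.79 in KO and 3.35 to 5.13 in WT tumours, without overlap. It was not tested. Slc16a7 and Me3, also under the filter, overlapped between KO and WT tumours.

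In the tricarboxylic acid cycle 1 of 14 tested genes rose and none fell. The succinyl-CoA ligase gene Suclg1 was at 10.45 ± 0.11 in KO and 9.90 ± 0.20 in WT tumours (mean ± SD, n = 5 each), 1.46-fold higher (limma, adjusted p = 0.0276). Suclg2 and Idh3b had 0.58 and 0.28 log2 without passing (adjusted p = 0.104 and 0.200). The median of the 14 was 0.14 log2, and Cs, for citrate synthase, had 0.19.

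Regulators known to act on Pdk genes, 18 in all, had 1 rise, that of Myc, by 1.69-fold to 11.29 ± 0.33 in KO, against 10.53 ± 0.16 in WT tumours (limma, adjusted p = 0.0291). Foxo1, Stat5a and Nr4a1 had 0.41, 0.44 and 0.70 log2 (adjusted p = 0.0983, 0.205 and 0.227). Ppara, Ppard and Pparg, the fatty acid sensors through which Pdk4 is known to be induced, had 0.44, 0.30 and 0.51, and the glucocorticoid receptor gene Nr3c1 had 0.28, none of which passed. The list median was 0.27 log2.

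Of 16 tested genes known to rise with Pdk4 under fasting or PPAR agonists, 3 rose and none fell. They were Vnn1, a pantetheinase gene, 4.08-fold higher (8.53 ± 0.69 in KO and 6.53 ± 0.69 in WT tumours), the peroxisomal gene Ehhadh, 2.30-fold (7.20 ± 0.50 in KO and 5.98 ± 0.42 in WT), and the thioesterase gene Acot1, 1.57-fold (8.28 ± 0.27 in KO and 7.63 ± 0.22 in WT, n = 5 each). Their adjusted p-values were 0.0151, 0.0300 and 0.0398 (limma). Cpt1a, which admits fatty acids to mitochondria, had 0.13, Angptl4 −0.07 and Plin2 −0.04 log2, and the list median was 0.20. The lowest difference on the list was that of Creb3l3, a fasting-induced factor gene, −0.40 log2, which did not pass (adjusted p = 0.292).

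The 5 genes of these lists that passed are Suclg1, Myc, Vnn1, Ehhadh and Acot1, and their calls rest on few mice. Over mouse means none of the 5 passed, with adjusted p-values from 0.0725 for Myc to 0.189 for Ehhadh (limma). In the lower and upper number ranges the differences were 0.35 and 0.72 log2 for Suclg1, 0.82 and 0.95 for Myc, 1.18 and 2.34 for Vnn1, 0.29 and 2.09 for Ehhadh, and 0.53 and 0.86 for Acot1. Of these only that of Ehhadh in the upper range passed, against WT tumour 1 alone.

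**Figure D5:**
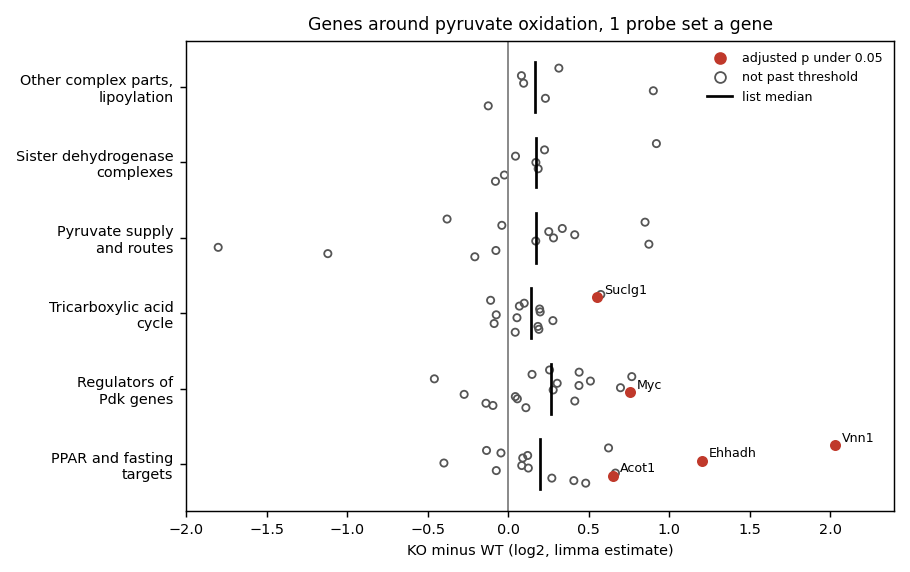
KO minus WT (log2, x axis) of single genes in the 6 groups around pyruvate oxidation, with filled points for an adjusted p under 0.05 and bars at the medians. The 5 filled points, Suclg1, Myc, Acot1, Ehhadh and Vnn1, are all to the right of 0, and the medians lie between 0.14 and 0.27.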

How the data were processed

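The deposited log2 values were made by the authors with RMA, version not given, per the submitters' processing notes. There is 1 array a tumour, and array medians lay between 6.43 and 6.50 log2. Per the labels, 30 ng of RNA from sections of 14 µm were amplified. The genome build is not given in the sources used here.

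Of 45101 probe sets, 64 controls were left out. Symbols came from the platform annotation, updated through RefSeq (34741 of 34945 probe sets with 1 symbol). Tests covered the 27022 probe sets whose mean reached the 40th percentile (5.81 log2). They used lmFit and eBayes of limma 3.58.1 under R 4.3.3 with statmod 1.5.0, the mouse as a random block (consensus correlation 0.0777), Benjamini-Hochberg adjustment over all probe sets and a threshold of 0.05. A fitted difference weights mice and can differ slightly from that of the means. The fit was tested on simulated data.

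For 3 array measures KO and WT were set against each other by exact permutation, two-sided. The permutation took single tumours as exchangeable and left the mouse out, so its p-values do not measure the spread between mice. The 3′ minus 5′ signal of controls was 0.86 ± 0.19 in KO and 0.96 ± 0.13 log2 in WT (exact permutation p = 0.381, adjusted over the 3 measures 0.381, n = 5 each). WT tumour 1 had the lowest mean correlation with the other arrays (0.964, against 0.970 to 0.976 for the rest).

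All probe sets of the members are described. Of each pathway list the 2 to 4 genes with the smallest p are named, others with values only, and 8 and 5 genes most like Pdk4. Members, lists and alternatives were chosen with earlier results of these data known. The alternatives were no block, mouse means, number range as covariate or alone, other level filters, other probe set choices, median centring, cyclic loess, trend and robust eBayes, array weights, the 3′ minus 5′ covariate, and each tumour or mouse left out. Protein sequences were not used here. The number of arrays limits the precision. As nothing says that tumours of a mouse were extracted apart, p-values measure the spread between these samples.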

Additional observations from a re-analysis of the deposited data

Results flagged for a closer look

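In 2 of 36 groups of 5 tumours, formed by the 18 probe sets other than that of Pdk4 and 2 genotypes, 1 tumour stood apart from the other 4 by a gap that Dixon's test puts past its 95% limit, and chance gives about 1 group in 20. On Pdk1 1435836_at, WT tumour 1 was at 7.90 log2 and the other WT tumours at 8.49 to 8.62. On Pdha1 1449137_at, KO tumour 9 was at 9.87 and the other KO tumours at 10.02 to 10.08.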

How the results depend on the processing

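No paired analysis was possible because KO and WT tumours came from different mice and the labels give no pairs. The count of 1548 changed probe sets was 763 over mouse means, 56 within the lower number range, 1000 with a filter at the 60th percentile, 868 with 1 probe set a gene, 741, 955 and 577 without mouse 04, 02 and 72, and 875 (KO tumour 6) to 1757 without single tumours, 1023 without WT tumour 1. The count of 2 other member probe sets was 1 over mouse means, with the range as covariate, with 1 probe set a gene and without mouse 04 or 02, 0 within the lower range and without mouse 72, and 1 to 2 without single tumours. Pdk4, at −5.13 log2, ranged from −6.74 (without mouse 72) to −4.63 over the 28 alternatives that include it. The difference was −6.57 within the upper range and −5.46 to −4.63 without single tumours. Pdk4 was chosen for its fall and its KO and WT values do not overlap, so its direction was set beforehand and counts as no support. Pdk4 was left out by the filter at the 60th percentile. For the lists around pyruvate oxidation the alternatives were added after the data were seen. The count of list genes past the threshold, 5, which may take in other list genes than the 5 named, was 1 over mouse means, 2 with the range or the 3′ minus 5′ signal as covariate, 0 in the lower range, 2, 1 and 3 without mouse 04, 72 and 82, and 1 (WT tumour 1 or 13) to 6 without single tumours, with 2 without KO tumour 6 and 3 without KO tumour 11 or WT tumour 8. Dlat 1452005_at passed in 25 of 28 alternatives and Pdp2 in 20 of 29. Pdk1 1423747_a_at passed only within the upper range, against WT tumour 1 alone. Fits within a range, or without mouse 72, leave 1 tumour in a group, which is assumed to vary like the others. Signal over background was not assessed, which limits all low values.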
